A study of Mus musculus with 24 samples.

Results

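The extracellular matrix genes followed here are 46 genes for collagens, laminins, matrix glycoproteins and proteoglycans and the proteins that fold, crosslink and turn them over. They were taken by matching the listed symbols to the Ensembl mouse identifiers of the deposited gene table, and all 46 were found among its 33846 genes. They fall into 8 fibrillar and collagen VI genes, 13 basement membrane genes, 8 glycoprotein and elastic fibre genes, 3 small leucine-rich proteoglycans, 7 genes of crosslinking, folding and turnover, 4 cartilage and vitreous collagens and 3 hyalectans. They were read in bulk polyadenylated RNA of mouse retinal organoids, tissue that forms from embryonic stem cells in culture; the labels name both wild-type lines used (R1 and a line from Nrl-GFP transgenic mice) but not which sample came from which. SSCi organoids stayed whole in still medium, whereas optic cups cut out at day 10 (D10) went on either in still medium (SSCd) or in a turning vessel, the rotating-wall bioreactor (RWB), which keeps tissue afloat. The 24 libraries form 9 groups: RWB at D18 (2 libraries), D22 (3) and D25 (3), SSCd at D18, D22 and D28 (3 each), and SSCi at D18 (2), D25 (2) and D32 (3). All groups had Matrigel, a basement membrane extract, added at D1, and all lines had been kept on embryonic fibroblast feeders that were removed before differentiation; the medium of the dissected cups was enriched with serum, B27 and amino acids at D18, that of the intact organoids not until D26.

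Fibrillar collagens (types I, III and V) assemble into the fibres of loose connective tissue, and in the body they come mainly from fibroblasts and related mesenchyme. Basement membranes are thin sheets of laminin, collagen IV, nidogen, perlecan (Hspg2) and agrin that line epithelia and vessels; the neural retina faces one at its inner surface, the inner limiting membrane. Collagens II and IX are known from cartilage and from the vitreous of the eye, and the hyalectans versican, neurocan and brevican bind hyaluronan in the matrix between cells.

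The libraries held between 13284632 and 21604446 estimated counts. In 20 of them 2.46% to 5.76% of the counts came from mitochondrially encoded genes, and more than 8% in replicate 1 of RWB D22, RWB D25, SSCd D18 and SSCd D22. The 10 neural retina markers used to check the tissue summed to between 2279 and 5307 CPM (counts scaled to a common library total with TMM factors) in 23 libraries and to 1753 CPM in replicate 1 of SSCi D18. That library stands apart on matrix genes too. It is left out of every level and test below unless it is named, its group's values are listed or all 24 libraries are used. Where it is part of a test, the value without it follows. In bulk RNA, more cells of a type and more RNA per cell cannot be told apart.

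Sparc, agrin and a collagen chaperone had the highest levels of the matrix genes in the organoids, and the collagen I and III genes were among the lowest. Levels can be compared between genes only per length, so estimated counts were divided by transcript length and scaled to the same total in every library (the TPM scale) for this ranking over the other 23 libraries. Sparc, a collagen-binding glycoprotein, had the highest median, at 130.0, followed by agrin (Agrn) at 122 and Serpinh1, the collagen chaperone of the endoplasmic reticulum, at 108. Fstl1 at 32.6, Col9a1 at 31.6, Col6a1 at 31.6 and Col2a1 at 30.5 formed the next tier on this length-scaled level. The collagen I and III genes stood near the bottom of the 46, with Col3a1 at 1.74 in place 36, Col1a2 at 1.31 in place 39 and Col1a1 at 1.10 in place 40. In replicate 1 of SSCi D18 the same scale ran from Sparc at 1959 through biglycan (Bgn) at 1884 and Fn1 at 1294 to Col3a1 at 1050.2 in place 4, while Agrn, at 95.9, was in place 23.

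Genes whose proteins assemble together were not at equal length-scaled levels. Collagen VI is built from 3 chains, and the median over the 23 libraries was 31.6 for Col6a1, 2.31 for Col6a2 and 0.347 for Col6a3. The collagen IX chains also differed, with Col9a1 at 31.6 and Col9a2 at 5.40. The collagen IV chains were closer, at 17.2 for Col4a1 and 11.3 for Col4a2; both genes lie on chromosome 8, and their annotated starts (11312826 on the minus strand and 11312805 on the plus strand, GRCm38) are 21 bases apart. Among the laminins, the beta 2 chain (Lamb2, 12.1) and the gamma 1 chain (Lamc1, 9.62) had the highest medians, above Lamb1 at 6.35, Lama1 at 5.08 and Lama5 at 3.85. Lama4, the alpha chain known from vessel walls, was the lowest of all 46 genes at 0.202.

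**Figure D1:**
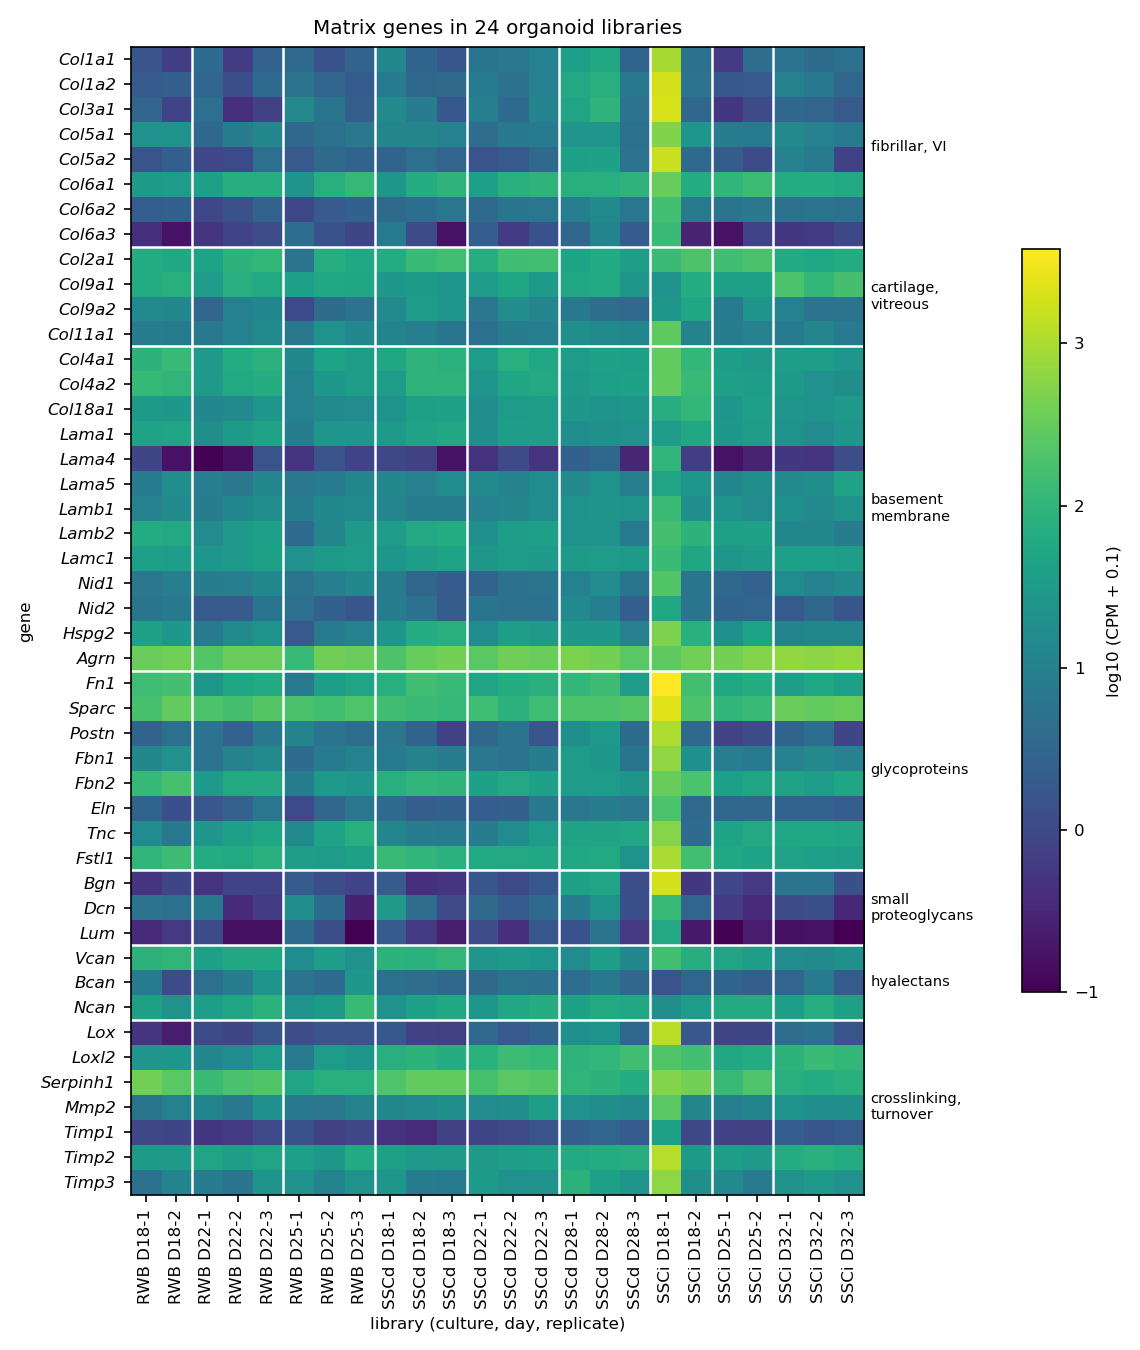
Level of each of the 46 matrix genes (rows, grouped by role) in each of the 24 libraries (columns, by culture and day), as log10 of CPM plus 0.1, with brighter cells for higher levels on the colour scale. The column of SSCi D18 replicate 1 is the highest of the 24 in 38 genes, and replicates 1 and 2 of SSCd D28 stand above replicate 3 in every fibrillar and collagen VI row but that of Col6a1.

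Replicate 1 of SSCi D18 held far more fibrillar and mesenchymal matrix RNA than any other library, while its basement membrane RNA differed less. Of the 46 genes, 38 were highest of all 24 libraries there, against 12.5% of all genes tested, and 26 exceeded every other library more than 5-fold, against 1.77% of all genes tested. These are descriptions of 1 library and carry no test. The 8 fibrillar and collagen VI genes summed to 7669 CPM in it and to between 54.5 and 400 CPM (median 106) elsewhere. The 13 basement membrane genes summed to 2332 CPM in it and to between 223 and 1072 CPM (median 717) elsewhere.

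By role, the ratio of replicate 1 to replicate 2 of SSCi D18 had a median of 265 for the fibrillar and collagen VI genes, 504 for the small leucine-rich proteoglycans, 32.7 for crosslinking, folding and turnover, and 28.8 for the glycoproteins. It was 2.71 for the basement membrane genes, 0.607 for the hyalectans and 0.593 for the cartilage and vitreous collagens. Fibronectin (Fn1), a glycoprotein that links cells to collagen, was at 3799 CPM in replicate 1 and 158 CPM in replicate 2, and the first value is 23.7 times the next highest library. Col3a1 was at 2038 against 3.33 CPM. Biglycan, a small proteoglycan that binds collagen fibres, was at 1930.3 against 0.452 CPM, and lysyl oxidase (Lox), which crosslinks collagen and elastin, was at 1257 against 1.64 CPM. For each of these genes the other SSCi D18 library lay within the range of the remaining cultures.

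Within the basement membrane group the split was by gene. Nid1 (nidogen, which joins laminin to collagen IV) was at 220 CPM in replicate 1 against 5.82 in replicate 2, Lama4 at 103 against 0.621, and Hspg2 at 468 against 82.3. Agrn, at 283 against 397 CPM, Lama1, at 34.5 against 55.3, and Col18a1, at 72.4 against 106, were not the highest in replicate 1, and these are the 3 of 13 that were not. Col9a1 was the opposite of the fibrillar genes, with its lowest value of all 24 libraries in replicate 1, 21.9 CPM, against 68.6 in replicate 2. Serpinh1, which acts on all collagens, was only slightly higher, at 544 against 415 CPM.

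Markers of mesenchyme that are not matrix genes were high in the same library. The 16 of them summed to 1469 CPM, against 18.4 to 89.0 CPM (median 36.9) in the other 23, and none of the 16 was at 0. Acta2 was at 599 CPM against 1.81 in replicate 2, and Prrx1, a mesenchymal transcription factor, at 270 against 1.13. Of other cell types, the cartilage markers summed to 51.1 CPM (8.49 to 37.3 elsewhere, with Snorc at 0), the skeletal muscle markers to 4.03 CPM (Myod1, Myog and Myf5 at 0), the lens markers to 4.74 CPM (1.96 to 9.12 elsewhere) and the vascular endothelium markers to 193 CPM (42.0 to 303 elsewhere, with Cdh5 at 0). The 8 extraembryonic endoderm markers summed to 425 CPM there and to 2.94 CPM in replicate 2. Nearly all of that sum was Thbd, at 416 against 0.452 CPM, and Afp, Foxa2 and Sox17 were at 0. The part of any cell type in the matrix values was not tested.

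**Figure D2:**
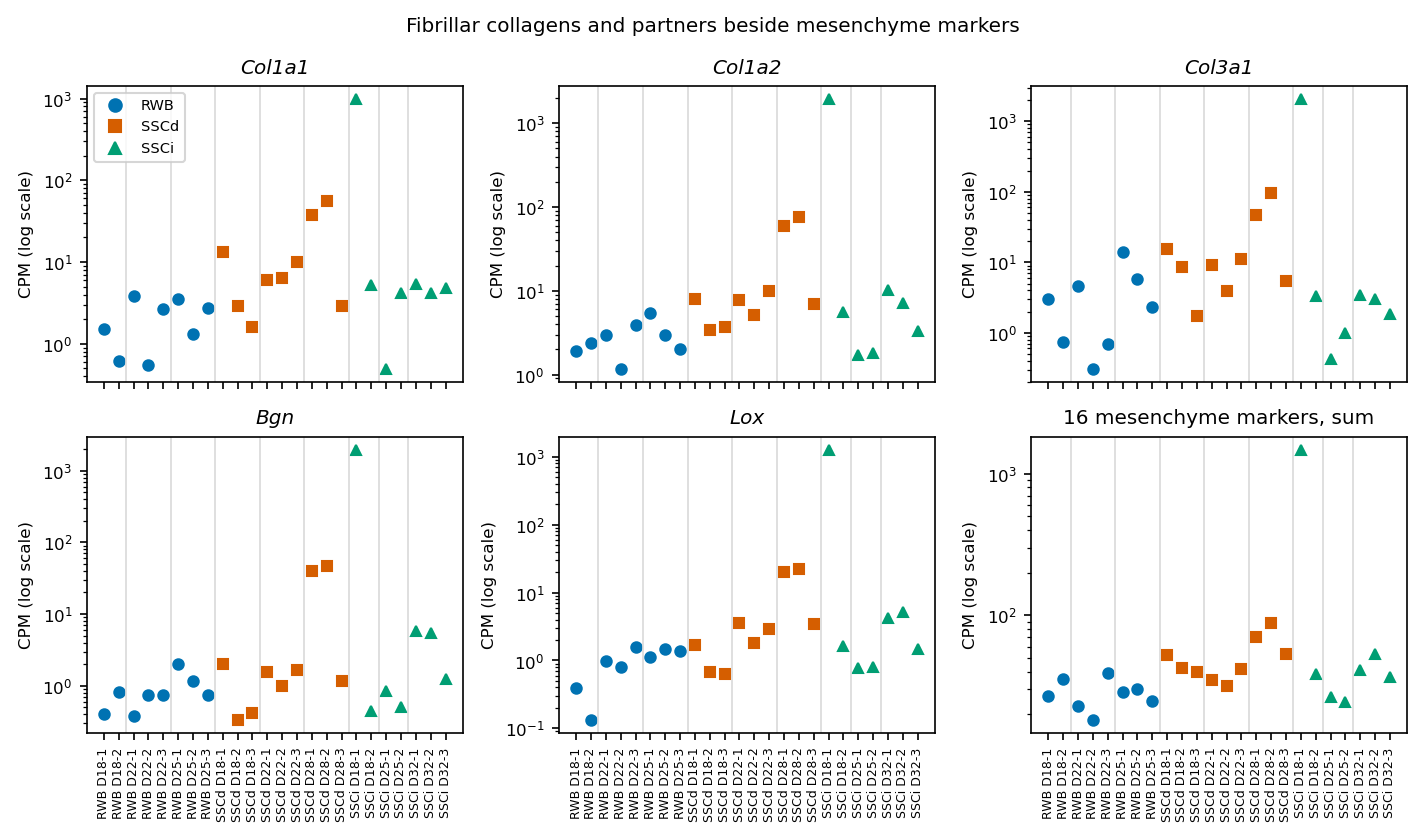
CPM on a log axis in each library, by culture and day, for Col1a1, Col1a2, Col3a1, Bgn and Lox and for the sum of 16 mesenchyme markers that are not matrix genes; each point is 1 library. SSCi D18 replicate 1 lies far above all others in every panel. In the gene panels SSCd D28 replicates 1 and 2 come next, apart from replicate 3. In the marker sum the SSCd D28 libraries lie closer together, from 53.4 CPM in replicate 3 to 89.0 CPM in replicate 2.

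SSCd D28 showed a smaller version of the same split between its libraries. Col1a2 was at 58.9 CPM in replicate 1, 76.6 in replicate 2 and 6.90 in replicate 3, while the 3 SSCd D18 libraries were at 8.02, 3.45 and 3.70 CPM. Bgn was at 39.3, 46.4 and 1.16 CPM at D28 and at 1.99, 0.339 and 0.419 CPM at D18. So replicate 3 was inside the D18 range for both genes and replicates 1 and 2 were above it. Replicates 1 and 2 both exceeded replicate 3 more than 2-fold in 18 of the 46 genes, against 5.20% of all genes tested, and more than 5-fold in 9, against 1.61%. Of those 9, 5 are fibrillar or collagen VI genes, 2 small leucine-rich proteoglycans, 1 a basement membrane gene and 1 a gene of crosslinking, folding and turnover. The mesenchyme marker sum was 70.2, 89.0 and 53.4 CPM in replicates 1, 2 and 3. Acta2 was at 22.7, 20.2 and 1.43 CPM and Prrx1 at 7.87, 8.19 and 0.614 CPM, whereas Thy1, on the same list, was at 13.2, 18.8 and 27.1 CPM. The part of these cells in the SSCd D28 values was not tested.

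From D18 to D25, basement membrane genes fell in the bioreactor. The medium of both dissected cultures was enriched at D18, the first day compared, so day and medium cannot be told apart in RWB or SSCd. Between RWB D18 and D25 edgeR's quasi-likelihood test called 13 of the 46 matrix genes lower and 2 higher at an adjusted p under 0.05, where 30.3% of all 16680 genes tested were called, 14.6% lower and 15.7% higher. The 13 basement membrane genes held 6 of the lower calls and no higher one, with a median log2 fold change of -1.10 against 0.06 for all genes tested. They were Col4a1, Col4a2, Col18a1, Lama1, Lamb2 and Hspg2. The other 7 basement membrane genes included Agrn, at -0.39 (SE 0.37), and Lamc1, at -0.40 (SE 0.24), which did not pass.

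Col4a2, a chain of the collagen IV network, was at 116 and 101 CPM in the RWB D18 libraries, at 28.6, 61.1 and 67.1 at D22, and at 9.99, 27.3 and 34.8 at D25. The D18 libraries were above all later ones, and the change from D18 to D25 was -2.17 on the log2 scale (SE 0.48, edgeR adjusted p = 0.0019). Hspg2, the gene for perlecan, was at 41.9 and 27.9 CPM at D18 and at 1.82, 7.91 and 10.3 at D25, a change of -2.37 (SE 0.59, edgeR adjusted p = 0.00479). Lamb2 fell from 63.0 ± 5.54 (SD, n = 2) to 15.0 ± 12.99 CPM (SD, n = 3), a change of -2.06 (SE 0.56, edgeR adjusted p = 0.00862). Vascular endothelium, which also makes basement membrane, had 8 markers that summed to 243 and 276 CPM at RWB D18 and to 42.0, 146 and 147 CPM at D25. Of the 3 that could be tested, Kdr (-1.23, SE 0.39, edgeR adjusted p = 0.0225) and Cldn5 were called lower and Pecam1 was not. Kdr made up nearly all of the sum, and Cdh5 did not exceed 0.305 CPM in any library. The part of these cells in the RWB values was not tested.

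Replicate 1 of RWB D25 was the lowest of the D25 libraries in each of these genes. It was the lowest of all 24 in 17 of the 46 matrix genes, against 14.9% of the 15567 genes over 1 CPM in at least 3 libraries. In it mitochondrial genes took 13.1% of counts, and the 10 pigment epithelium markers summed to 1083 CPM against 19.2 to 545 CPM elsewhere. The extraembryonic endoderm markers summed to 973 CPM in it, of which 969.9 CPM were Ttr, a gene on both of these lists. Without it 10 genes were still lower, and Col4a2, Hspg2, Lamb2, Fn1, Fbn2, Fstl1, Vcan, Col5a1 and Serpinh1 were called under every alternative tried. Lama1, Col18a1 and Col9a2 lost their calls without it and without 1 or the other RWB D18 library, and their values closest to 0 over the alternatives were -0.90, -0.93 and -1.62. Col4a1 lost its call only without RWB D18 replicate 2. Its part in the other values was not tested.

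**Figure D3:**
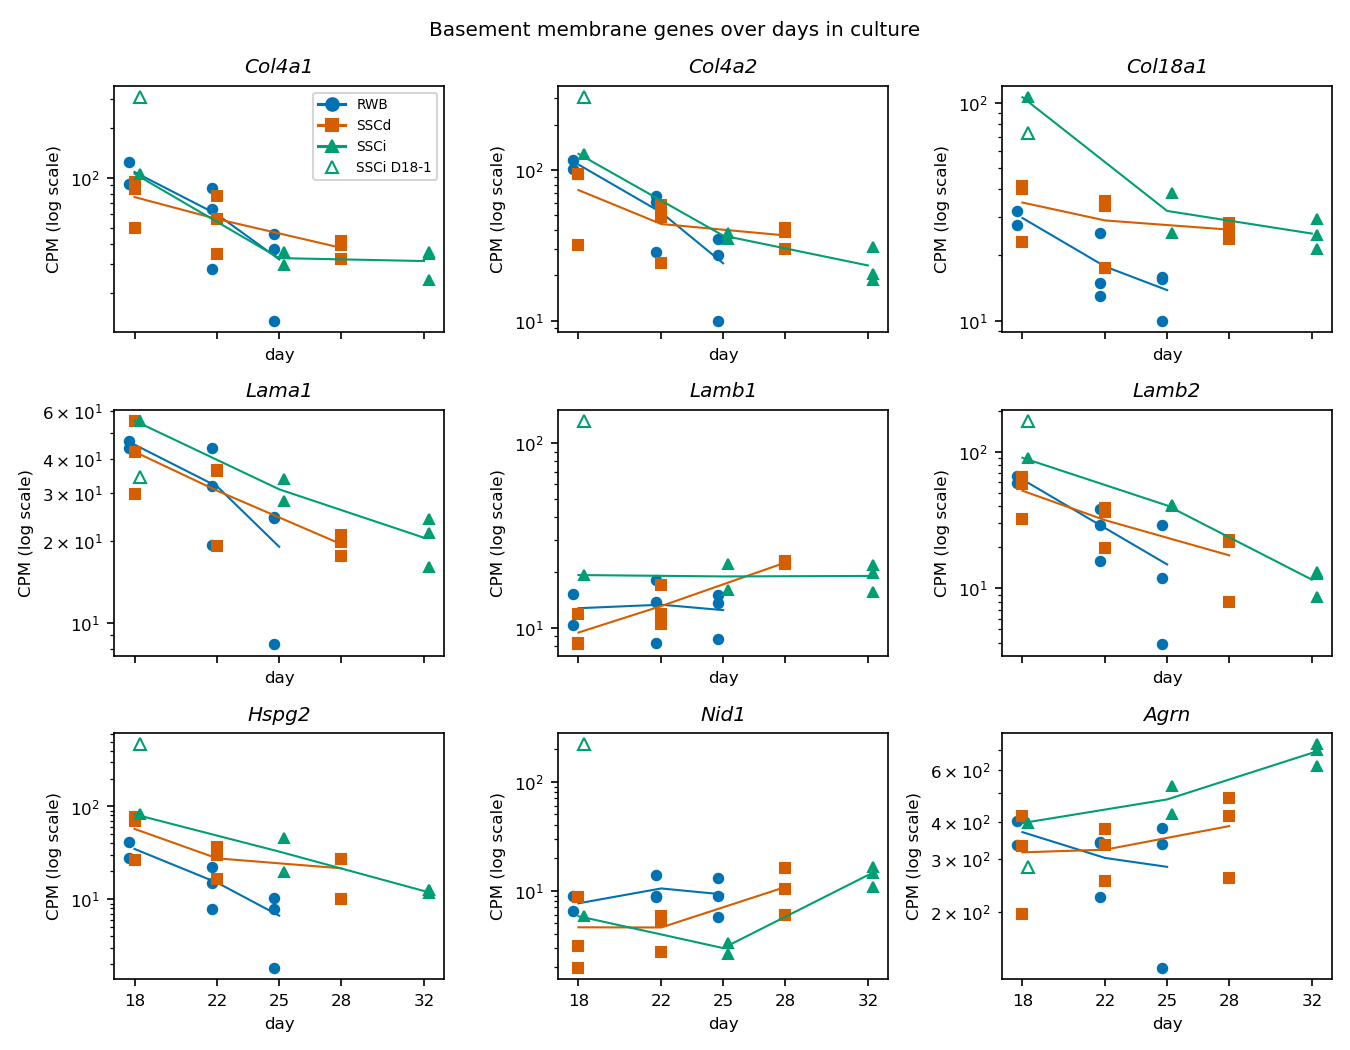
CPM on a log axis against day of differentiation for 9 basement membrane genes, with 1 point per library, lines joining the group means of each culture (SSCi D18 without replicate 1) and an open triangle for SSCi D18 replicate 1. The Lamb2 means are lower on the last day than at D18 in RWB and SSCd, and in RWB all D18 points for Col4a2 lie above the later ones, whereas Agrn stays between 129 and 731 CPM in all libraries.

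The static cultures showed part of this. From SSCd D18 to D28 the basement membrane genes were called lower in 3 (Lamb2, Hspg2, Lama1) and higher in 2 (Lamb1, Nid1), with a median of -0.17. Col4a1 (-1.02, SE 0.41, edgeR adjusted p = 0.0564) and Col4a2 (-0.999, SE 0.44, edgeR adjusted p = 0.0809) did not pass. Replicate 1 of SSCd D18 was below its group for both, with Col4a2 at 32.0 CPM against 94.2 and 94.3 in replicates 2 and 3, and both genes were called lower when that library was left out. Lamb1, the laminin beta 1 chain, went from 11.8, 8.13 and 8.30 CPM to 22.6, 22.96 and 22.1 CPM, with no overlap between the groups (log2 fold change 1.26, SE 0.29, edgeR adjusted p = 0.00197). Lamb2, the laminin beta 2 chain, went from 32.3, 58.3 and 65.8 CPM to 22.7, 21.8 and 7.99 CPM (log2 fold change -1.57, SE 0.52, edgeR adjusted p = 0.0224). The Lamb2 call was lost without SSCd D18 replicate 2, SSCd D18 replicate 3 or SSCd D28 replicate 3, with values no closer to 0 than -1.23. That of Hspg2 was lost in 8 of 13 alternatives (-2.53 to -1.07), that of Nid1 in 7 (0.39 to 2.08) and that of Lama1 in 3 (-1.35 to -0.90).

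Over the whole set, SSCd D28 had 16 genes higher and 8 lower than SSCd D18, where 36.4% of all genes tested were called, 18.8% higher and 17.6% lower. The higher calls included 5 of the 8 fibrillar and collagen VI genes (median log2 fold change 1.77, against 0.02 for all genes), 4 of 8 glycoproteins and 4 of 7 genes of crosslinking, folding and turnover. Col1a2 was 3.24 higher on the log2 scale (SE 0.66, edgeR adjusted p = 0.000723), Bgn 5.01 higher (SE 0.95, edgeR adjusted p = 0.000384) and Lox 3.94 higher (SE 0.62, edgeR adjusted p = 6.08e-05). Replicate 3 was then taken as the only D28 library, a choice made after its values were seen. With its spread taken to be that of the other groups, 11 of the 24 remained, Col1a2 was at 0.45, Bgn at 0.36 and Lox at 1.80, none of them called with 1 library, and Col1a1, Col3a1 and Fbn1 changed sign, to -1.01, -0.65 and -0.64. The tests without SSCd D18 replicate 2 and without replicate 3 called 15 and 14 genes.

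Of the tissue inhibitors of metalloproteinases, Timp1 and Timp2 were high in all 3 D28 libraries and Timp3 was not. Timp1 was at 0.368, 0.282 and 0.698 CPM at SSCd D18 and at 2.34, 2.99 and 2.05 CPM at D28 (log2 fold change 2.45, SE 0.42, edgeR adjusted p = 0.000158). Timp2 was at 40.4, 29.4 and 28.5 CPM and then at 63.4, 68.3 and 71.5 CPM (1.05, SE 0.24, edgeR adjusted p = 0.00174). All 3 D28 libraries were above all 3 D18 libraries for both genes, and with replicate 3 as the only D28 library both were still called, at 2.18 and 1.12. Timp3 was at 26.9, 8.81 and 7.53 CPM at D18 and at 87.1, 39.0 and 24.4 CPM at D28 (1.80, SE 0.56, edgeR adjusted p = 0.017), where replicate 3 lay within the D18 range, and with that replicate alone it was at 0.76 and not called. Tnc, the glycoprotein tenascin-C, was likewise high in every D28 library, at 42.6, 43.9 and 54.7 CPM against 12.8, 8.30 and 8.02 CPM at D18 (2.28, SE 0.49, edgeR adjusted p = 0.00116).

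Some genes were lower on the later day in every culture, where day and medium again cannot be told apart. Between the first and last day of RWB and of SSCd, which share no library, 8 genes were lower in both and 2 (Tnc and Lox) higher in both, and none was called in opposite directions. Of all genes tested, 11.1% were lower in both, 11.8% higher in both and 0.0659% called in opposite directions. The 8 were all the genes that fell in SSCd and 8 of the 13 that fell in RWB. Serpinh1, versican (Vcan) and Lamb2 were also lower at D32 than at D25 in SSCi, where 4 of the 46 genes were higher and 3 lower (4.48% and 4.94% of all genes tested, 9.42% in all); 3.75% of all genes were lower in all 3 courses. Serpinh1 was at 406 and 252 CPM at RWB D18, at 134, 187 and 220.2 at D22, and at 49.2, 76.4 and 75.1 at D25. No library of one day overlapped another, and the change from D18 to D25 was -2.30 (SE 0.28, edgeR adjusted p = 5.83e-06). In SSCd it went from 272 ± 53.9 CPM at D18 to 85.8 ± 15.0 at D28 (SD, n = 3 each; -1.66, SE 0.26, edgeR adjusted p = 5.18e-05), and in SSCi from 123 and 208 CPM at D25 to 77.1, 64.3 and 82.0 at D32 (-1.15, SE 0.28, edgeR adjusted p = 0.012). The SSCi call of Serpinh1 was lost without SSCi D25 replicate 2 or D32 replicate 2. That of Vcan was lost without D25 replicate 1 or D32 replicate 2. The SSCi call of Lamb2 (edgeR adjusted p = 0.0499) was kept in only 2 of 10 alternatives. It was lost without any 1 of the 5 libraries, with DESeq2 size factors, without the filter and with all 24 libraries. Over the alternatives the values of Serpinh1, Vcan and Lamb2 closest to 0 were -0.73, -1.15 and -1.63. In RWB the call of Lox was kept in 4 of 11 alternatives (1.72 to 3.23). It was lost without D25 replicate 2, D25 replicate 3, either D18 library, the filter or the high-mitochondrial libraries, and with all 24 libraries. The RWB call of Tnc was lost without D25 replicate 3 or D18 replicate 2 and with all 24 libraries (1.39 to 2.71).

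Vcan, which binds hyaluronan, was at 86.5 and 98.1 CPM at RWB D18 and at 16.97, 36.1 and 20.9 at D25 (-1.90, SE 0.33, edgeR adjusted p = 0.000223). In SSCd it was at 91.0, 85.5 and 108 CPM at D18 and already at 24.7, 29.8 and 25.0 at D22. RWB D22, at 38.7, 52.3 and 54.8 CPM, lay above all 3 SSCd D22 libraries, but the difference did not pass the test (0.88, SE 0.30, edgeR adjusted p = 0.165). The other hyalectans, Ncan and Bcan, which are known from brain and retina, had no call in any of the 3 courses. Fbn2, a fibrillin of developing elastic fibres, went from 117 and 179 CPM at RWB D18 to 8.64, 28.2 and 24.4 at D25, the largest fall among the 15 genes called there (-2.86, SE 0.38, edgeR adjusted p = 1.36e-05).

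Fn1 was called lower in RWB but not in SSCd, where its D28 libraries were split. It was at 143 and 160.5 CPM at RWB D18 and at 8.01, 36.1 and 47.0 at D25 (-2.31, SE 0.56, edgeR adjusted p = 0.00379). In SSCd it was at 73.1, 152 and 129 CPM at D18 and at 108, 140.1 and 31.9 at D28, where the groups overlapped (-0.33, SE 0.50, edgeR adjusted p = 0.643). With replicate 3 as the only D28 library the log2 fold change of Fn1 was -1.89. The difference between the courses could not be tested at these days, since RWB ends at D25 and SSCd at D28. From D18 to D22, which both cultures share, the test of the difference in change called none of the 46 genes in edgeR or DESeq2 (0% of all genes tested in edgeR), and 1 gene had an unadjusted p under 0.05.

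**Figure D4:**
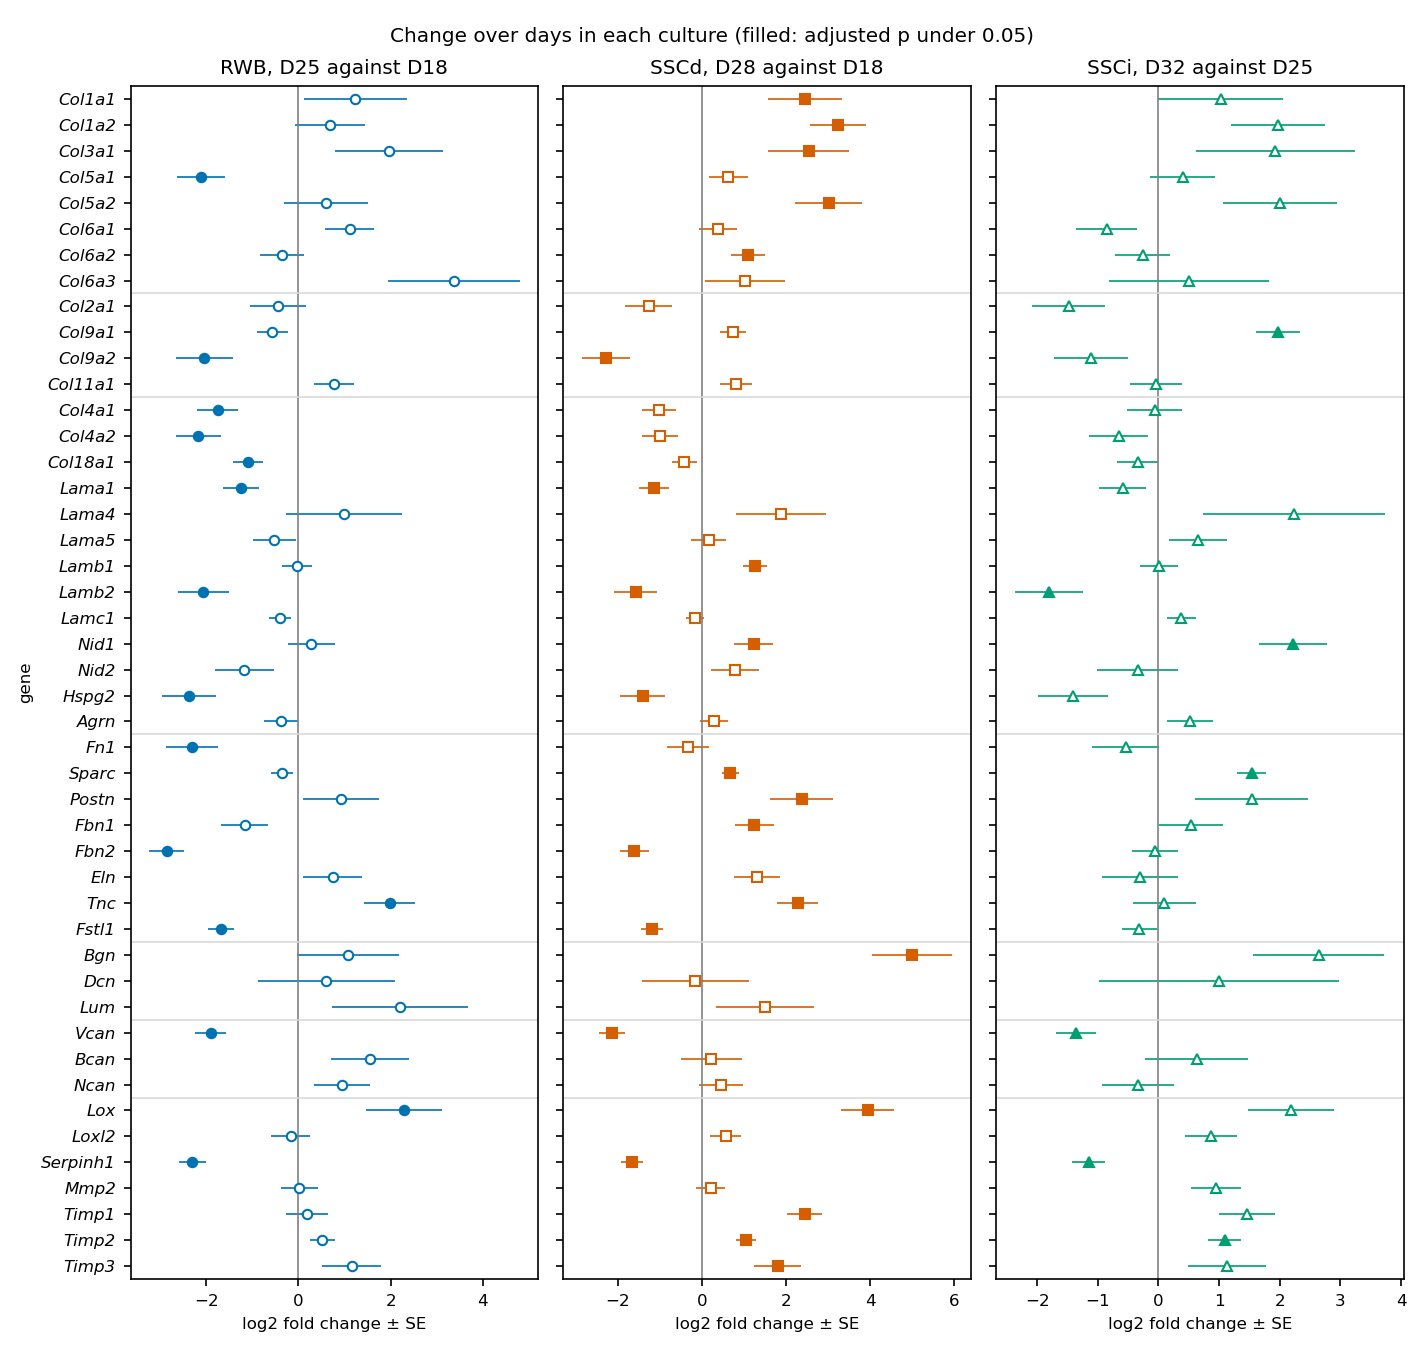
Log2 fold change with its standard error for each of the 46 genes in 3 courses, RWB D25 against D18, SSCd D28 against D18 and SSCi D32 against D25, with filled points for an edgeR adjusted p under 0.05. Serpinh1, Vcan and Lamb2 are filled and below 0 in all 3 courses, and 5 fibrillar and collagen VI genes are filled above 0 in the SSCd course.

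In SSCi the last week brought a rise of Sparc and Col9a1. Sparc was at 105 and 120 CPM at D25 and at 336, 302 and 338 CPM at D32 (1.53, SE 0.24, edgeR adjusted p = 0.000449). Col9a1 was at 39.4 and 40.0 CPM at D25 and at 189, 109 and 168 CPM at D32 (1.97, SE 0.36, edgeR adjusted p = 0.00141). The D32 libraries were above both D25 libraries for each gene, and the Col9a1 call was the 1 call of the 7 that held under every alternative. The D32 group mean of Col9a1, 155 ± 41.6 CPM (SD, n = 3), was the highest of the 9 groups, and the next, RWB D18 at 70.2 ± 4.67 (n = 2), was below every D32 library. Nid1 rose from 3.31 and 2.62 CPM to 16.5, 10.7 and 14.4 CPM (2.22, SE 0.56, edgeR adjusted p = 0.0157), a call lost without either of the D25 libraries. Serum was present at D32 and not at D25, so day and medium cannot be told apart here. Agrn had its highest values in these D32 libraries, 699, 620 and 731 CPM against 426 and 528 at D25, without passing the test (0.52, SE 0.38, edgeR adjusted p = 0.461).

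Col9a1 has a long and a short transcript that start at different places, and both were in the deposited transcript table. The long one (coding length 2763 bases) starts at 24177610 on chromosome 1 and the short one (coding length 2040 bases) at 24195187, on the plus strand of GRCm38. Over all 24 libraries the short form took 96.0% to 100.0% of the gene's length-scaled level (median 99.4%). Its lowest share was in SSCi D18 replicate 1. In estimated counts the short form summed to 20519 over all 24 libraries, against 32.1 for the long form, of which 16.6 were in that replicate. The 250 bases before each start that RefSeq annotates (GRCm38.p6, plus strand) are shown because nearly all reads were assigned to the form that begins at the second. The capitals mark CCAAT, which was searched for on both strands together with TATAAA and GGGCGG.
Col9a1, before the upstream start, chr1:24177360-24177609: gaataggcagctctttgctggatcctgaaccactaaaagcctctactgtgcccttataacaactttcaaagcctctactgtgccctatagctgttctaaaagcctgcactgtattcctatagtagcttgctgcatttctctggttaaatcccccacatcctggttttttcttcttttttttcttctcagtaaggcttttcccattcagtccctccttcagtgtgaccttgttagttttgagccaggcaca
Col9a1, before the downstream start, chr1:24194953-24195202: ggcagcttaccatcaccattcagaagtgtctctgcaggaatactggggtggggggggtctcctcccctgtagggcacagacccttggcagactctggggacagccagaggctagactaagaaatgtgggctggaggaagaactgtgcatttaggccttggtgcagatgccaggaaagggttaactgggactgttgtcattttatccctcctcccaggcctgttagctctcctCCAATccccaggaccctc
The downstream window holds CCAAT on the sense strand and the upstream window holds none of the 3 motifs. The last 16 bases of the downstream window lie in the exon that GENCODE annotates. The CCAAT, 18 to 14 bases before the RefSeq start, therefore lies across the GENCODE start and not wholly upstream of it. CCAAT was found in 33.8% of all 32851 promoter windows of the table and in 12 of the 37 windows of the 31 matrix genes that have one. GGGCGG was found in 32.7% of all windows and in 26 of these 37, and TATAAA in 12.4% of all and 5 of the 37. These matches are descriptions of the letters in the windows.

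Dissected cups in rotation and in still medium could be compared at D18 and D22, and few matrix genes differed. At D18 edgeR called none of the 46, where it called 0.564% of all genes tested (0.108% higher and 0.456% lower in RWB), 8 had an unadjusted p under 0.05, and DESeq2 called 3 (Col9a1 and Sparc higher, Loxl2 lower in RWB). At D22 it called none higher and 2 lower in RWB, where 2.24% of all genes tested were called, 0.522% higher and 1.72% lower. The D22 genes were Loxl2, a lysyl oxidase relative that crosslinks collagen IV, and Col6a2, a collagen VI chain.

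Loxl2 had the smallest adjusted p of the 46 genes at D22. It was at 23.97 and 24.9 CPM in RWB D18, at 13.3, 16.5 and 34.2 in RWB D22 and at 8.09, 31.9 and 25.1 in RWB D25. The SSCd libraries were at 77.1, 92.7 and 67.2 CPM at D18, at 82.4, 137 and 118 at D22 and at 94.0, 106 and 152 at D28. The SSCi libraries were at 213 and 161 CPM at D18, at 54.0 and 66.4 at D25 and at 91.1, 131 and 107 at D32. All 8 RWB libraries were below all 16 static ones, with 34.2 CPM the highest of the first and 54.0 the lowest of the second. At D22 the difference was -2.40 (SE 0.39, edgeR adjusted p = 0.00313), a call held under every alternative. At D18 it was -1.69 (SE 0.44, edgeR adjusted p = 0.108), and DESeq2, a replicate block and the test without libraries above 8% mitochondrial counts called it. Against SSCi at D25 it was -1.47 (SE 0.41, edgeR adjusted p = 0.0314), a call lost without RWB D25 replicate 1 or without either SSCi D25 library, at values no closer to 0 than -1.11.

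Col6a2 was at 0.838, 1.29 and 2.80 CPM in RWB D22 and at 3.58, 6.001 and 6.23 in SSCd D22, with no overlap (-1.67, SE 0.43, edgeR adjusted p = 0.0464). The call was lost when any 1 of the 6 D22 libraries except RWB D22 replicate 3 was left out, at values between -2.29 and -1.36 over the alternatives. Lox, of the same family as Loxl2, was at 0.990, 0.800 and 1.56 CPM in RWB D22 and at 3.58, 1.83 and 2.86 in SSCd D22. The groups did not overlap, and the difference did not pass the test (-1.29, SE 0.60, edgeR adjusted p = 0.336).

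**Figure D5:**
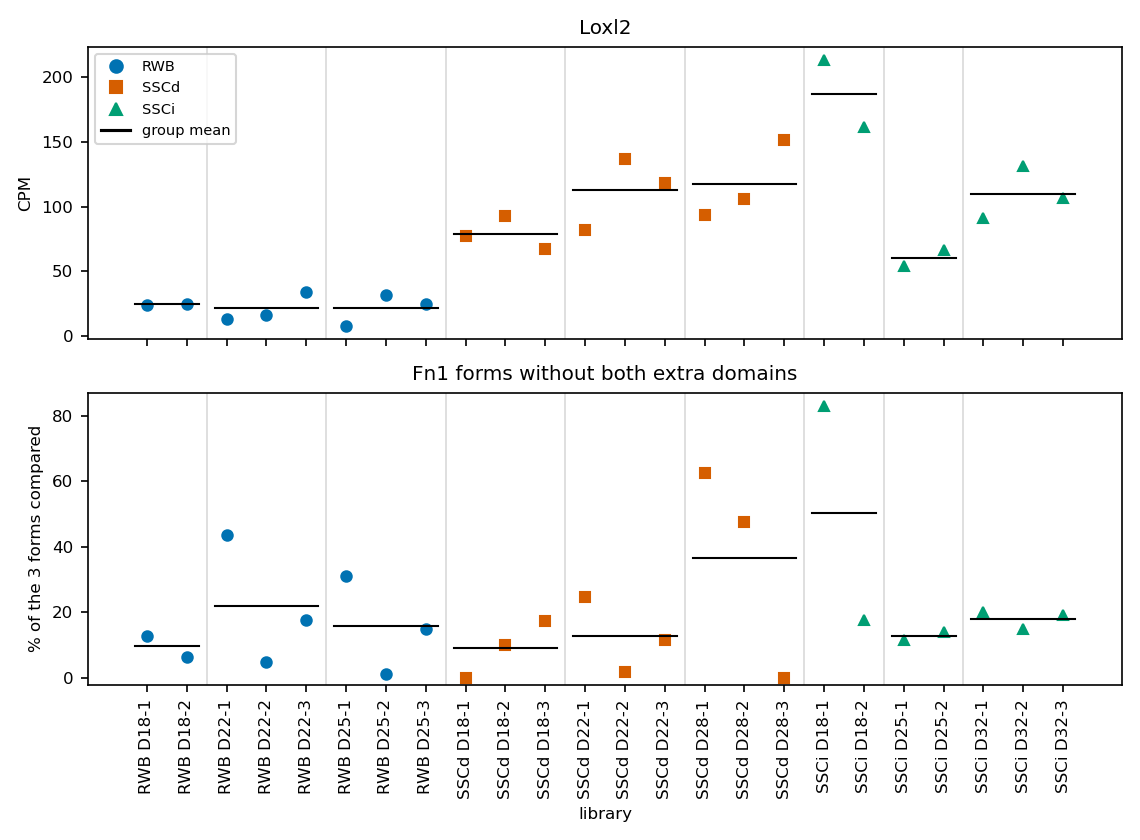
Top panel, Loxl2 in CPM in each library by culture and day. Bottom panel, the percentage of the 3 compared fibronectin transcripts that lack both extra-domain exons. Each point is 1 library and the black line the group mean, which for SSCi D18 includes replicate 1. All 8 RWB points for Loxl2 lie at or below 34.2 CPM and all static points at or above 54.0 CPM, and the fibronectin share is highest in SSCi D18 replicate 1 at 82.8%.

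At D25 the bioreactor could be compared only with intact organoids, which had neither been dissected nor given serum, so these differences and rotation cannot be told apart. Of the 46 genes none was higher in RWB and 7 were lower, where 9.77% of all genes tested were called, 4.18% higher and 5.59% lower. Besides Loxl2 they were Serpinh1 (-1.31, SE 0.28, edgeR adjusted p = 0.00668), Hspg2, Col6a2, Col18a1, Col9a2 and Col2a1. Col2a1, the collagen of cartilage and vitreous, was at 5.79, 70.1 and 56.4 CPM in RWB D25 and at 152 and 187 in SSCi D25 (-1.94, SE 0.60, edgeR adjusted p = 0.049). DESeq2 called 15, of which 8 were lower and 7 higher in RWB (Bcan, Col3a1, Dcn, Lum, Nid1, Postn and Sparc); in edgeR Postn was at 2.94 with an adjusted p of 0.0554. None of the 7 edgeR calls held under every alternative, and 1, 4 and 0 genes were called without RWB D25 replicate 1, SSCi D25 replicate 1 and SSCi D25 replicate 2. The comparison shares its RWB D25 libraries with the RWB course above.

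Comparisons with SSCi D18 depended on its replicate 1. Fitted with all 24 libraries, 26 of the 46 matrix genes were lower in SSCd D18 than in SSCi D18 and none higher, where 3.86% of all 16792 genes tested were called, 3.51% lower and 0.351% higher. Without that replicate edgeR called 0 of the 46; without SSCd D18 replicate 3 it also called 0, and without SSCd D18 replicate 2 it called 10. From SSCi D18 to D25, 35 genes were lower and none higher (10.9% and 8.89% of all genes tested, 19.8% in all), and without replicate 1 of SSCi D18 only 5 were called. Without either SSCi D25 library, 16 and 18 were called. Both comparisons share the SSCi D18 libraries.

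The 5 genes called without it follow the other cultures in part. Tnc was at 3.95 CPM in the remaining SSCi D18 library and at 45.6 and 56.9 at D25 (3.71, edgeR adjusted p = 0.0116), whereas with replicate 1, at 548 CPM, it was not called. Fbn2 changed by -2.11 (edgeR adjusted p = 0.00991), Fstl1 by -1.69 (0.00747), Serpinh1 by -1.31 (0.0327) and Col18a1 by -1.72 (0.0165) on the log2 scale. These tests have 1 library at D18, whose spread is taken to be that of the other groups.

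Fibronectin RNA is spliced with or without 2 extra type III repeats, known as EDB and EDA, and plasma fibronectin lacks both. The exons that encode them are shown because the share of forms without them differed between libraries of the same group. Both are on the minus strand of chromosome 1 (GENCODE M21, GRCm38) and belong to the transcript that spans 71585524 to 71653175. They are its exon 25, of 273 bases or 91 codons, and its exon 33, of 270 bases or 90 codons, and both are absent from the other transcripts compared, of 7797 and 7694 bases.
Fn1 exon 25 (EDB), chr1:71613763-71614035: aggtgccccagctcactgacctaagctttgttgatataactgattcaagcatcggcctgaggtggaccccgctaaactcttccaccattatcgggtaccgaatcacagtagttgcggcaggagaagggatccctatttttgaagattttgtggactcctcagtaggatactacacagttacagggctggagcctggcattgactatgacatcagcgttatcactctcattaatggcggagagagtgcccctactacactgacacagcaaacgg
Fn1 exon 33 (EDA), chr1:71603660-71603929: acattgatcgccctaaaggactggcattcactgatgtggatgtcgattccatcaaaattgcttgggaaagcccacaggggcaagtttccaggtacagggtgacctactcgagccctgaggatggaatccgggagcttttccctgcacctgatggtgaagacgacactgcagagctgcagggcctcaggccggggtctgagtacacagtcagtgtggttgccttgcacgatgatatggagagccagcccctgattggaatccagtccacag
Of the summed length-scaled level of these 3 transcripts, the forms without both exons took 82.8% in SSCi D18 replicate 1 and 17.8% in replicate 2. In SSCd D28 they took 62.7%, 47.6% and 0% in replicates 1, 2 and 3. The other 21 libraries, named so after the values of the 3 highest were seen and with SSCi D18 replicate 2 and SSCd D28 replicate 3 among them, lay between 0% and 43.6% with a median of 14.1%, the highest being RWB D22 replicate 1. Shares come from length-scaled estimated counts over transcripts that overlap along most of their length. They carry an error that the deposited values do not give, and no test was made of them. The 3 compared transcripts are not the whole gene, and other Fn1 forms are outside these shares. In RWB D25 replicate 1 the 3 took 21.0%, 9.52% and 0% of the gene's level, with 29.8, 12.7 and 0 estimated counts. A versican transcript that lacks a coding exon of 2880 bases took 47.2% of the length-scaled Vcan level in SSCi D18 replicate 1. In SSCd D28 replicates 1, 2 and 3 it took 49.5%, 58.2% and 33.5%. The same 21 libraries, set by the fibronectin values and with SSCd D28 replicate 3 again among them, lay between 21.4% and 45.1% (median 31.9%).

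Other matrix genes were read from lists of further collagens (13 genes), further basement membrane genes (21), collagen-modifying enzymes (27), hyaluronan and perineuronal net genes (9) and matrix receptors (24). Between RWB D18 and D25, 3 further collagens were higher and none lower, 3 further basement membrane genes were higher and 7 lower, and 6 matrix receptors were higher and 8 lower, beside 15.7% of all genes higher and 14.6% lower. Between SSCd D18 and D28 these counts were 4 and 0, 3 and 5, and 8 and 5, beside 18.8% and 17.6% of all genes. Syndecan 1 (Sdc1), a heparan sulfate proteoglycan of the cell surface, fell in both, with log2 fold changes of -2.64 (SE 0.26) in RWB and -2.15 (SE 0.24) in SSCd. Nephronectin (Npnt), an integrin ligand of basement membranes, rose in both, by 2.74 (SE 0.38) and 3.134 (SE 0.33). Egflam, which encodes pikachurin of the photoreceptor ribbon synapse, also rose in both, by 2.11 (SE 0.27) and 1.50 (SE 0.23), while netrin 4 (Ntn4) fell, at -2.25 (SE 0.26) and -1.26 (SE 0.23). Against SSCi at D25, RWB was lower in Col17a1, a transmembrane collagen of epithelia (-3.01, SE 0.48, edgeR adjusted p = 0.000784). At D22 the basement membrane glycoprotein Smoc2 was higher in RWB than in SSCd, by 2.48 (SE 0.54, edgeR adjusted p = 0.0182), and at D18 1 of these genes, P3h4, was called, lower in RWB at -1.45 (edgeR adjusted p = 0.0136).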

How the data were processed

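The study's 24 libraries hold stranded polyadenylated RNA, grouped by the culture and day in their titles. The 46 genes and the other gene lists were chosen with earlier results of these data known. The submitters' processing notes name the build GRCm38.p5 and, as tools, limma 3.32.2, edgeR 3.13.9 and kallisto 0.42.5; the sources used here do not give the annotation release. Values in the deposited tables are estimated counts per gene and per transcript, not normalized.

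Here estimated counts were rounded and fitted with edgeR 4.0.16 (quasi-likelihood, TMM, Benjamini-Hochberg over all genes tested, threshold 0.05). A fit of 22 libraries without SSCi D18 tested 16680 genes, and a fit of all 24, used for the comparisons with SSCi D18 and for CPM, tested 16792; all 46 genes passed the filter in both. The tests were checked only on counts simulated from the fitted spread, without an outlying library or a split group, so the check does not cover such cases. Log2 fold changes come from the fits. Lengths, transcripts and positions are those of GENCODE M21 (103635 of 105129 transcripts matched), and promoters those of RefSeq. Replicates are called biological in the design text. The rule for named genes took the 46 genes and, from each further list, up to 4 called genes with the smallest p.

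Same-numbered RWB D22 and SSCd D22 libraries deviated together (correlations of their deviations from group means 0.43, 0.20 and 0.43); the labels do not say what a number shares. Alternatives were DESeq2 1.42.0 (size factors and Wald test), no filter, a replicate block, all 24 libraries and each library left out. Leaving out libraries above 8% mitochondrial counts, and using the third SSCd D28 library alone, were added after seeing the data.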

Additional observations from a re-analysis of the deposited data

How the results depend on the processing

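Counts of the 46 genes called moved as follows. RWB against SSCd at D18 (0 genes) gave 3 with the DESeq2 Wald test, 1 with a replicate block and 3 without the libraries above 8% mitochondrial counts. At D22 (2 genes) no filter, all 24 libraries and leaving out the high-mitochondrial libraries gave 1 each, and leaving out 1 library gave 1 to 2. RWB against SSCi at D25 (7 genes) gave 15 with DESeq2, 12 with the replicate block and 0 to 9 with 1 library left out. RWB D25 against D18 (15 genes) gave 10 to 15 with 1 library left out. SSCd D28 against D18 (24 genes) gave 12 in the fit of all 24 libraries, 14 to 25 with 1 library left out and 11 with the third D28 library alone. SSCi D32 against D25 (7 genes) gave 11 with DESeq2, 3 in the fit of all 24 and 3 to 7 with 1 library left out. SSCd against SSCi at D18 (26 genes) gave 0 to 33, and SSCi D25 against D18 (35 genes) 5 to 35, with 1 library left out. The cause of these changes was not tested, except that leaving out a library leaves fewer samples.

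Direction was reversed in these called values. With the third SSCd D28 library alone, Col1a1 was at -1.01, Col3a1 at -0.65 and Fbn1 at -0.64. Without SSCi D18 replicate 1, SSCd against SSCi at D18 gave 1.36 for Col3a1, 0.96 for Bgn, 0.15 for Col1a1, 0.41 for Mmp2, 0.05 for Timp2 and 1.29 for Tnc, and SSCi D25 against D18 gave 0.56 for Bgn, 1.29 for Col6a3 and 0.08 for Timp2. With any 1 library left out, Col3a1 and Bgn in the first and Bgn in the second comparison ranged from -7.83 to 1.36, from -11.29 to 0.96 and from -11.43 to 0.56.

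Same-numbered libraries deviated together, with 3 pairs each correlated above 0.1, at D22, where the replicate block gave 2 genes, as without it. With 2 pairs that requirement could not be met. There the correlations were 0.23 and 0.11 for SSCd and SSCi at D18 and 0.32 and 0.08 for RWB and SSCi at D25. For SSCi D25 and D18 both pairs gave 0.17, the same value by construction, since in groups of 2 the deviations are equal and opposite. In the other 3 comparisons with 2 pairs the correlations lay between -0.15 and 0.0081. Between SSCd D18 and D28 the correlations were 0.05, -0.08 and 0.22, and the block called 25 genes. The replicate block gave 15 genes for RWB D25 against D18, 8 for SSCi D32 against D25, 28 for SSCd against SSCi at D18, 35 for SSCi D25 against D18 and 0 for the difference in change. Low counts limit what can be said of the fibrillar genes in most groups, and groups of 2 or 3 libraries limit every test.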
